A study of Mus musculus with 6 samples.

Results

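Cytosolic ribosomal protein genes encode the proteins of the 2 subunits of the ribosome that works in the cytoplasm. The members were the protein-coding rows of the deposited normalised table whose symbol is Rpl or Rps followed by a number, with or without a closing a, l, x or al, together with Rplp0, Rplp1, Rplp2 and Rpsa. Among the rows of that table the rule uses names and the protein-coding label and no measured value. The normalised table has only 24521 rows, however. Rpl10l and Rpl39l, with 2 and 4 reads, fit the names but have no row in it. The rule gave 79 members among the 55421 genes of the count table: 31 of the small subunit, 45 of the large subunit and 3 of the stalk. They lie on 19 chromosomes. The rule leaves out Rack1, Fau and Rps3a1, among others, which are ribosomal proteins under other names and are described separately.

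The embryos were mice at E18.5, a late stage of gestation, and polyadenylated RNA of their lungs was sequenced in 6 libraries. Of these, 3 came from wild type embryos and 3 from embryos labelled Mll3FDC/FDC, the Mll3 knockout. Mll3, whose current symbol is Kmt2c, is a histone H3 lysine 4 methyltransferase that works at enhancers. The labels give neither sex, litter nor strain, do not say which exons the FDC allele alters, and do not say whether each library is 1 embryo, so the replicate error may be partly technical.

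Each ribosome carries 1 copy of nearly every ribosomal protein, so cells make these proteins in balance and in large amounts. In mammals their mRNAs start with a C followed by a run of pyrimidines, the 5′ terminal oligopyrimidine (TOP) motif, through which mTORC1 and Larp1 set their translation. A few members also act outside the ribosome: unassembled Rpl5 and Rpl11 bind the p53 ligase Mdm2, and losing 1 copy of some members causes anaemia or skeletal defects. Most have many processed pseudogenes, copies of the mRNA pasted elsewhere in the genome.

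RefSeq start sites were matched by symbol for 59 of the 79 members. In 32 of them (54.2%), at least 1 start had a C followed by unbroken C or T letters, 8 or more in all on the coding strand, within 30 bases on either side. Among all 27025 genes of the same table the share was 20.6%. The run had a median length of 10.5 bases in those members. The sequences below show the runs of members that the results turn on or that were longest; capitals mark the run, all are from RefSeq on GRCm38.p6, 5′ to 3′ on the gene's own strand.
Rpl27a, chr7:109519187-109519214, plus strand: tgagCTCCTCCCTTTTCCCTTTCTgcca
Rpl34, chr3:130730331-130730358, minus strand: cccgCCCCTTCCTTTTCCTCTTCCgggg
Rpl7a, chr2:26910791-26910817, plus strand: aattCCCTCTTCTTTCTTTCTCCagca
Rpl11, chr4:136053360-136053383, minus strand: aagtCTCCCTCTCTCTTCCTgttc
Rpl4, chr9:64173366-64173386, plus strand: aagtCTTTCCTTTTCCTgtgg
Rps10, chr17:27635231-27635251, minus strand: cacgCCCCTTCCTTTCCagcc
Rpl10a, chr17:28328578-28328595, plus strand: tctgCCTTCTTTCCggtt
Rplp2, chr7:141447643-141447659, plus strand: gcgtCTTCCTTTCgccg
Rps27, chr3:90213638-90213654, minus strand: ttcgCTCCTTTCCggcg
Rps27l, chr9:66946060-66946076, plus strand: tccaCTCCTCTCCactc
Rps7, chr12:28635971-28635986, minus strand: ccaaCTCTTTTCagaa
The runs of Rpl27a and Rpl34 were the longest, at 20 bases. The run of Rps7 begins at position -29 from its start and that of Rps27 at position -2, where -1 is the last base before the start. Runs of Rps27l, Rpl4, Rpl34 and Rpl7a begin at -22, -17, -17 and -12, and those of Rpl27a, Rplp2 and Rps10 at -4, -4 and -3. For Rpl11 and Rpl10a the run begins inside the transcript, at bases 15 and 18. A run in the window is thus not by itself a 5′ terminal motif. For Rpl34, Rpl10a and Rps27l the table holds more than 1 start, and the run shown belongs to 1 of them. The same search found a run in 6 of 14 matched translation factors known for TOP mRNAs (42.9%), 16 of 67 mitochondrial ribosomal protein genes (23.9%) and 5 of 35 nucleolar assembly factor genes (14.3%). The letters TATAAA on the coding strand of the 50 bases before the start were in 0 of the 59 members and in 3.15% of all genes. A match is a description of these letters, and a missing one says only that they are not in the window.

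Libraries held 20158689 to 23305306 reads assigned to genes. Whole-gene Kmt2c was at 162, 179 and 162 CPM (read counts scaled to library size) in wild type libraries 1 to 3 and 143, 171 and 159 in knockout libraries 1 to 3, so the genotypes overlapped. Its log2 fold change was -0.09 ± 0.08 (SE, edgeR adjusted p = 0.74), and a count over the whole gene does not check a deletion of part of it. Summed markers of lung (Sftpc, Ager, Nkx2-1 and 5 others) were at 15322 to 18139 CPM in every library. Single lung markers ran from log2 -0.45 to 0.37 and 0 were called, against 0.368% of all genes. At an unadjusted p under 0.05 (edgeR) stood 3 of these 8, 2 higher and 1 lower, or 37.5% against 10.7% of all genes. Summed liver markers were at 58.9 CPM in knockout 2 and at 6.99 to 22.6 elsewhere. Summed skeletal muscle markers were at 535 CPM in wild type 1 and 534 in knockout 2, against 14.4 to 21.6 in the other 4 libraries. Xist had 59951 reads in knockout 3 and 6 to 27 in the others. Sample titles carry 1 of 2 prefixes, AK7986 for wild types 1 and 2 and knockout 1, and AK7987 for the rest; what these stand for is not stated. All 10 markers of dividing cells had a fold change above 0 in the knockout (median log2 0.32). Of them 0 were called, where 0.368% of all genes were, a share at which so few genes would give 0 calls. At an unadjusted p under 0.05 (edgeR) stood 3 of the 10, all higher, or 30% against 10.7% of all genes. The sum of the 10 was highest in knockout 1, at 1140 CPM against 677 to 818 in the other 5.

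Reads assigned to ribosomal protein genes made up a similar share of lung reads in both genotypes. Reads from sequence shared with pseudogenes could be dropped or placed at a copy, as described below, so these are not shares of the mRNA itself. The 79 members held 0.979%, 0.902% and 1.11% of the reads in wild types 1 to 3. They held 1.05%, 0.985% and 0.961% in knockouts 1 to 3. Wild type 3 was the highest and wild type 2 the lowest of all 6 libraries, so the wild types enclosed the knockouts. The means were 0.995% ± 0.103 and 1.00% ± 0.0489 (SD, n = 3 each). Small subunit members accounted for 0.443% ± 0.0488 in wild type and 0.446% ± 0.0197 in knockout, and large subunit members, stalk included, for 0.552% ± 0.0540 and 0.554% ± 0.0302. In bulk tissue, fewer cells of a type and less RNA per cell cannot be told apart.

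No ribosomal protein gene passed the threshold of the genotype test. Of the 79 members, 78 passed the filter on low counts; 0 were higher and 0 lower in the knockout at an adjusted p under 0.05 (edgeR quasi-likelihood test, Benjamini-Hochberg over 19042 genes). Over all genes tested, 0.368% were called, 0.063% higher and 0.305% lower. The lowest adjusted p of any member was 0.37. At an unadjusted p under 0.05 stood 6 members (7.69%), against 10.7% of all genes. Of these, 4 were higher in the knockout, where 4.71% of all genes were, and 2 were lower, where 6.02% were. DESeq2 called 0 members, where it called 1.87% of all genes, and had 3 of the 78 at an unadjusted p under 0.05, where 9.17% of all genes were. The median log2 fold change, knockout over wild type, was -0.01 over the 78 members and 0.01 over all genes.

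The precision of the test differed widely between members. The 95% interval of the fold change lay within 1.5-fold in either direction for 67 of the 78 members and within 2-fold for all 78. The narrowest interval reached 0.16 log2 units to either side and belonged to Rpl3, which holds 11744 reads. The widest reached 0.76 and belonged to Rpl38, with 136 reads. A 1.5-fold change would thus lie outside the interval of most members, while for the thinnest ones this depth leaves a much larger change undetectable.

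**Figure D1:**
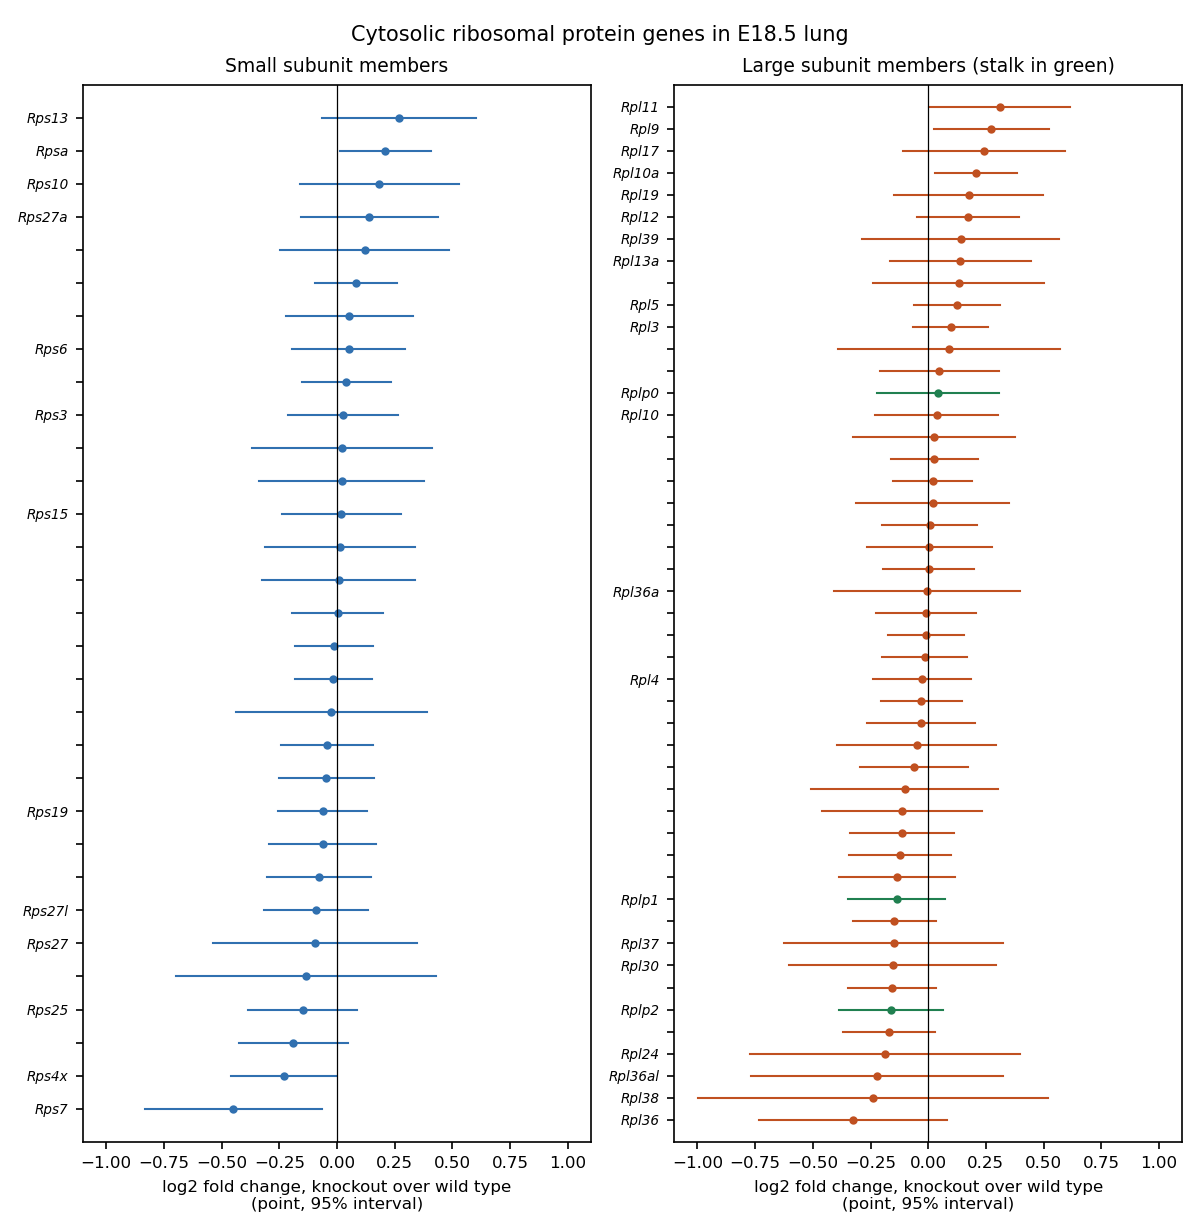
Log2 fold change, knockout over wild type, of the 78 tested members (point) with its 95% interval (line), small subunit on the left, large subunit and stalk on the right. Members described in the text are labelled. Points run from -0.45 for Rps7 to 0.31 for Rpl11, and the interval of Rpl38 is the widest.

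In the small subunit, 31 members were tested, 16 with a fold change above 0 and 15 below, with a median of 0.00. The most negative member was Rps7, a part of the small subunit body that can also bind Mdm2 (chr12:28630854-28635953, mm10). Rps7 was at 8.72, 10.5 and 12.5 CPM in wild types 1 to 3 and at 6.86, 7.00 and 9.33 in knockouts 1 to 3. Knockout 3 lay above wild type 1, so the genotypes overlapped. Its log2 fold change was -0.45 ± 0.17 (SE, adjusted p = 0.37). Only 1206 reads in all 6 libraries stand behind it.

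Rps4x, which has a Y-linked copy in humans but not in mice, lies on the X chromosome (chrX:102184941-102189394). It was at 361, 330 and 405 CPM in wild type and at 274, 317 and 342 in knockout. Knockout 3 exceeded wild type 2, so the groups overlapped here too. The log2 fold change was -0.23 ± 0.10 (adjusted p = 0.45). In a fit that also held the title prefix, described below, it was -0.32 and its adjusted p 0.049, just past the threshold. Knockout 3, the library with Xist reads, was the highest knockout for Rps4x. The other X-linked members, Rpl10, Rpl36a and Rpl39, had log2 fold changes of 0.04, -0.01 and 0.14 with adjusted p of 0.95, 0.995 and 0.84.

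Rpsa, the 40S protein also known as the laminin receptor, whose human gene is mutated in congenital absence of the spleen, was at 58.7, 57.6 and 64.9 CPM in wild type. In the knockouts it was at 77.9, 68.7 and 62.9 CPM. Wild type 3 was above knockout 3. The log2 fold change was 0.21 ± 0.09 (adjusted p = 0.43). Rps13, a rRNA-binding protein of the small subunit, was at 4.15, 4.75 and 4.33 CPM in wild type and at 5.06, 5.63 and 5.27 in knockout. It was the 1 small subunit member whose genotypes did not overlap, with a log2 fold change of 0.27 ± 0.15 (adjusted p = 0.57).

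Other small subunit members at the ends of the range passed no threshold. Rps10, mutated in some cases of Diamond-Blackfan anaemia, had a log2 fold change of 0.18 (adjusted p = 0.72), and Rps27a, made as a fusion with ubiquitin, of 0.14 (0.76). On the negative side Rps25, which is needed for initiation on some viral mRNAs, stood at -0.15 (adjusted p = 0.67). Rps19, the member most often mutated in Diamond-Blackfan anaemia, was at 68.4 ± 8.13 CPM in wild type and 65.5 ± 2.30 in knockout (SD, n = 3 each). Rps6, the substrate of the mTORC1-driven S6 kinase, ranged from 11.0 to 12.8 CPM over the 6 libraries and stayed within 1.16-fold, the same span as Rps12 and the narrowest of the members.

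In the large subunit without the stalk, 44 members were tested, 21 with a fold change above 0 and 23 below, with a median of -0.01. Those with the lowest p were Rpl10a, Rpl9 and Rpl11, all with higher knockout means. Rpl10a, which sits in the L1 stalk that guides tRNA out of the ribosome (chr17:28328471-28331033), was at 32.5, 31.7 and 32.3 CPM in wild type and at 39.9, 35.6 and 35.8 in knockout. Every knockout was above every wild type. Its log2 fold change was 0.21 ± 0.08 (adjusted p = 0.37).

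Rpl9 (chr5:65388364-65391444), which contacts the sarcin-ricin loop of the rRNA, was at 8.85, 8.89 and 8.13 CPM in wild type. In knockout it was at 10.4, 10.4 and 10.5 CPM. The groups did not overlap, and the log2 fold change was 0.27 ± 0.11 (adjusted p = 0.41). Rpl11 (chr4:136028265-136053428), the Mdm2-binding member, was at 6.46, 5.62 and 6.11 CPM in wild type and at 7.24, 7.04 and 8.26 in knockout, again without overlap. Its log2 fold change, 0.31 ± 0.14, was the highest of the members (adjusted p = 0.46). Its partner in that complex, Rpl5, was at 47.0 ± 3.55 CPM in wild type and 51.3 ± 3.43 in knockout (log2 0.13, adjusted p = 0.65).

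Genotypes did not overlap in 5 members, Rpl9, Rpl10a, Rpl11, Rpl12 and Rps13, which is 6.41% of the 78 against 17% of all genes. In all 5 the knockouts were the higher group; over all genes 8.6% stood apart with the knockouts higher and 8.45% with the knockouts lower. Rpl12, which anchors the stalk base with Rplp0, was at 12.6, 11.5 and 12.6 CPM in wild type and at 13.7, 13.6 and 14.0 in knockout (log2 0.17 ± 0.10, adjusted p = 0.59). In 4 of the 5 the mean was under 20 CPM, and none of the 5 passed the test. Members under 20 CPM numbered 26, with a median log2 fold change of 0.02. The 52 members at or above 20 CPM had a median of -0.02, with Rpsa highest at 0.21 and Rps4x lowest at -0.23.

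**Figure D2:**
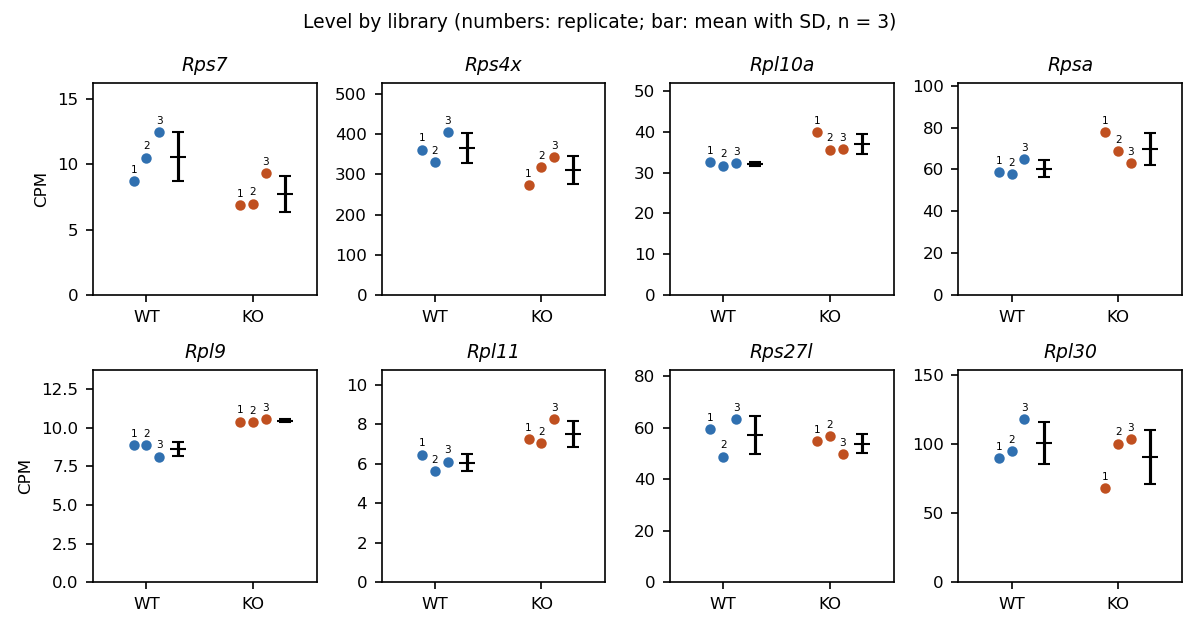
CPM in each library of the 6 members at an unadjusted p under 0.05 (Rps7, Rps4x, Rpl10a, Rpsa, Rpl9, Rpl11), of the paralog Rps27l and of Rpl30, with the mean and SD of 3 libraries beside each group. The groups are apart in Rpl10a, Rpl9 and Rpl11 and overlap in the other 5.

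At the negative end of the large subunit stood Rpl36, with 14.5, 14.2 and 17.7 CPM in wild type and 11.9, 9.34 and 15.6 in knockout. Knockout 3 was above wild types 1 and 2. Its log2 fold change was -0.33 ± 0.18 (adjusted p = 0.57). Rpl38, mutated in the Tail-short mouse, which has skeletal patterning defects, was at 0.677, 1.57 and 1.08 CPM in wild type and at 0.963, 0.783 and 1.07 in knockout, so the wild types enclosed the knockouts (log2 -0.24 ± 0.34). Rpl24, mutated in the Belly spot and tail mouse, was at 3.43, 3.01 and 3.81 CPM in wild type and at 1.88, 3.96 and 3.17 in knockout. Its lowest value was in knockout 1 alone, and the log2 fold change was -0.19 ± 0.26 (adjusted p = 0.85). Rpl17, near the exit of the peptide tunnel, had a log2 fold change of 0.24 (adjusted p = 0.64), with knockout 3 at 5.55 CPM inside the wild type range of 5.40 to 6.07.

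The stalk is the flexible arm that recruits elongation factors, built from Rplp0 at its base and pairs of Rplp1 and Rplp2. Rplp0 was at 587, 534 and 591 CPM in wild type and at 709, 522 and 533 in knockout. Knockout 1 was the highest library and the other knockouts were the lowest, so the genotypes overlapped (log2 0.04 ± 0.12). Rplp1 was at 351, 317 and 381 CPM in wild type and at 354, 294 and 307 in knockout (log2 -0.14 ± 0.09, adjusted p = 0.66). Rplp2 was at 63.0, 63.3 and 71.3 CPM in wild type and at 52.6, 55.9 and 68.2 in knockout (log2 -0.16 ± 0.10, adjusted p = 0.62). No stalk gene passed the test.

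Levels varied far more between members than between genotypes. Per kb of the main transcript, the mean over 6 libraries ran from 1.53 CPM per kb for Rpl36al to 843 for Rps15, a 551-fold span over the 78 members. The main transcript was the longest protein-coding one among those with the best APPRIS rank, an annotation mark of the principal form. It had 5179 bases for Rps15a, 3706 for Rps20 and 2989 for Rpl18. Whether these are the forms made in lung was not tested, and levels per kb and unique shares depend on this choice. The 10 members with the most reads, Rpl4, Rps3, Rpl8 and Rplp0 among them, held 56.0% of the members' reads. In CPM, 24 members were at 100 or more and 20 were under 10. Rps15 was at 837 ± 96.1 CPM per kb in wild type and 848 ± 117 in knockout (SD, n = 3 each). Also high were Rplp1, at 701 ± 63.7 and 638 ± 63.0, and Rpl4, at 667 ± 64.2 and 655 ± 45.5 CPM per kb. The difference between Rplp1 and Rpl4 was smaller than their spread in both genotypes. At the low end Rpl38 was at 2.43 ± 0.976 and 2.06 ± 0.321 CPM per kb and Rpl36al at 1.65 ± 0.414 and 1.41 ± 0.163.

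Members whose transcripts share more sequence with other genes had lower levels. The main transcript of each member was split into all its windows of 75 bases, the read length, and a window was unique if no transcript of another gene in GENCODE M21 held it on the same strand. The median member had 60.5% unique windows. Rps27 had 1.48%, Rpl9 8.73% and Rpl10a 12.4%, while Rps3 and Rpl3l had 100%. At least 1 window was shared with a pseudogene in 75 of the 79 members, with a median of 5 pseudogenes and a maximum of 64 for Rpl7a. The counting kept only reads with a mapping quality of at least 1, per the file headers, so reads from shared windows could be dropped or placed at a copy.

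Members with under 25% unique windows (15) had a median level of 14.5 CPM per kb. The median was 40.6 for the 12 members at 25 to 50%, 43.7 for the 29 at 50 to 75% and 156 for the 22 at 75% or more. Across the 78 members, Pearson's r between the unique share and the log2 level was 0.43 and Spearman's rho 0.46. This is a description over genes that share the same 6 libraries, and both measures rest on the transcript chosen for each member. Dividing by unique kb instead of total kb left the spread nearly as wide: over the 68 members with at least 20% unique windows the SD of the log2 level was 2.15 in place of 2.22. As reads from shared windows could be dropped or placed at a copy, levels of members with few unique windows are uncertain as levels of the mRNA. This holds most of all for Rps27, Rpl9 and Rpl10a, though Rpl10a, at 47.5 CPM per kb, was not low. Median log2 fold changes did not follow the same order, at 0.00, 0.00, 0.01 and -0.02 from the least to the most unique class. Their ranges were -0.19 to 0.27, -0.45 to 0.31, -0.24 to 0.24 and -0.22 to 0.14. The 6 members at an unadjusted p under 0.05 (edgeR) were not among the most unique. Their shares were 8.73% for Rpl9, 12.4% for Rpl10a, 39.0% for Rpl11, 41.6% for Rps7, 47.1% for Rps4x and 60.5% for Rpsa. How far shared reads enter the values of single members such as Rpl9 and Rpl10a was not tested.

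**Figure D3:**
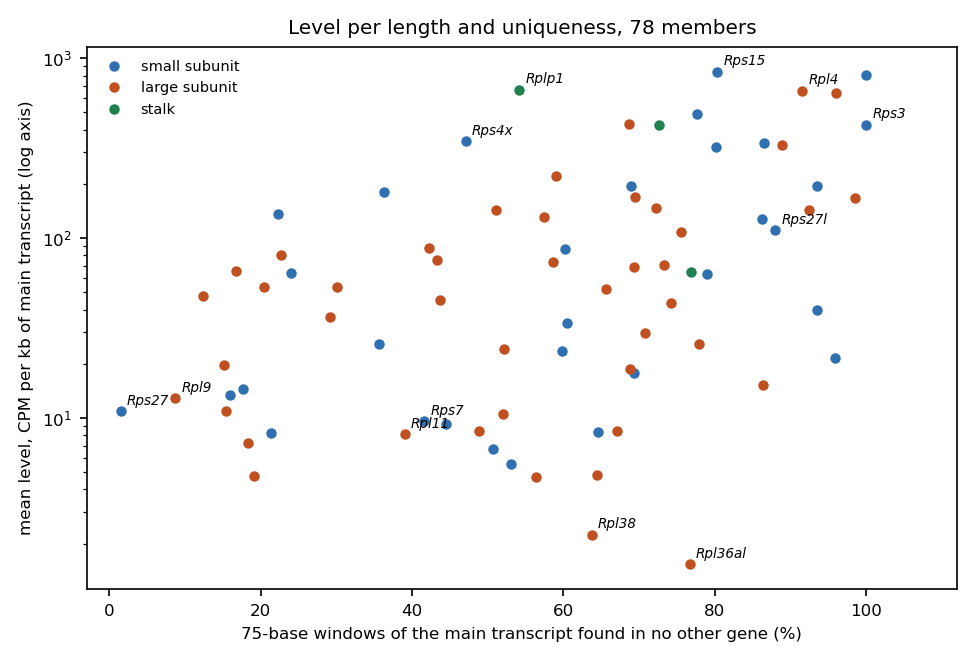
Mean level over 6 libraries in CPM per kb of main transcript (log axis) against the percent of its 75-base windows found in no other gene, for the 78 tested members coloured by subunit. Class medians go from 14.5 under 25% to 156 at 75% or more, with Rpl36al, at 76.7% and 1.53 CPM per kb, far below.

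The rows named as ribosomal protein pseudogenes held 38.3 reads for every 100 reads of the members. Of 306 such names, 272 had a read and 142 were tested. None was called, against 0.368% of all genes, and the median was -0.00. At an unadjusted p under 0.05 stood 1 (Rplp0-ps1, log2 0.39), against 10.7% of all genes. Their share of reads was 0.382% ± 0.0410 in wild type and 0.382% ± 0.0132 in knockout (SD, n = 3 each), highest in wild type 3 at 0.426%.

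Within each paralog pair 1 gene was the higher in all 6 libraries, and no tested gene of a pair passed the genotype threshold. Rps27l, a p53-responsive relative of the zinc-finger protein Rps27, was at 119, 97.8 and 127 CPM per kb in wild type and at 110, 114 and 99.6 in knockout. Rps27 was at 9.95, 10.9 and 13.1 CPM per kb in wild type and at 12.4, 10.8 and 8.52 in knockout. Rps27l was thus the higher gene in all 6 libraries by counted reads, but 88.0% of its windows are unique against 1.48% for Rps27. Rps27rt, a near copy of Rps27 outside the naming rule, was at 136 ± 16.9 CPM in wild type and 131 ± 39.5 in knockout, not per kb. In the same plain CPM, Rps27l was at 57.2 ± 7.50 and 53.7 ± 3.65 and Rps27 at 3.90 ± 0.556 and 3.64 ± 0.668 (SD, n = 3 each). How many reads of Rps27 were placed at Rps27rt was not tested. Their log2 fold changes were -0.09 ± 0.10 for Rps27l and -0.10 ± 0.20 for Rps27 (adjusted p = 0.81 and 0.91).

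Rpl3, at the peptidyl transferase centre, was at 63.7 ± 5.09 CPM per kb in wild type and 68.1 ± 3.18 in knockout. Its striated muscle paralog Rpl3l had 2, 3 and 3 reads in wild type and 0, 1 and 2 in knockout, 11 in all, and was the 1 member not tested. The skeletal muscle markers were high in wild type 1 and knockout 2, the libraries with 2 reads and 1 read of Rpl3l. Rpl36a on the X chromosome was at 10.9 ± 2.37 and 10.9 ± 0.706 CPM per kb, and its autosomal copy Rpl36al on chromosome 12 at 1.65 ± 0.414 and 1.41 ± 0.163, lower in all 6 libraries. The testis paralogs Rpl10l and Rpl39l, which are not rows of the normalised table, had 2 and 4 reads in the count table. Rps4l, listed as a pseudogene by the files and so no member, had 866 to 1393 reads per library.

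Many members stood high together, or low together, in single libraries of 1 genotype. Wild type 3 was the highest of the 6 libraries for 45 of the 78 members (57.7%), against 17.4% of all genes tested. It was above both other wild types for 67 members (85.9%), against 36.1% of all genes, with a median ratio to their mean of 1.18 (1.00 over all genes). Wild type 2 was the lowest library for 34 members (43.6%), against 13.3% of all genes. As a deviation from each gene's mean over 6 libraries, the members' median was 0.17 log2 in wild type 3, -0.12 in wild type 2 and -0.03 in wild type 1. In knockouts 1 to 3 it was 0.03, 0.02 and -0.02.

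Values that moved with these libraries are given beside them. Wild type 3 also had the highest share of mitochondrially encoded mRNA (1.496% against 1.21 to 1.43%), of pseudogene reads (0.426% against 0.345 to 0.397%) and of the TOP translation factors (0.859% against 0.776 to 0.851%). Wild type 2 had the lowest share of the latter 2. Summed red cell markers, 11 of the 12 listed genes having a row, were at 2621 to 4497 CPM, with wild type 3 at 4371 second to knockout 3. The part of any of these in the members' values was not tested.

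Knockout 1 had the widest spread of members, as it had of all genes. It was the lowest library for 22 of them (28.2%), against 23.4% of all genes, and the highest for 13 (16.7%), against 26.5% of all genes. For the members, the SD of the deviations was 0.22 against 0.11 to 0.17 in the other 5 libraries. The interquartile range in knockout 1 was 0.27 log2 units over the members and 0.27 over all genes, against 0.159 to 0.207 over all genes in the other 5. Rpl19, a bridge between the subunits, was at 52.1 CPM in knockout 1 and at 32.8 to 41.3 in the rest. Rpl13a, which also takes part in silencing inflammatory mRNAs, was at 59.5 CPM there and at 40.1 to 48.4 in the rest. In the other direction Rpl30, an RNA-binding protein of the large subunit, was at 68.1 CPM in knockout 1 and at 89.7 to 118 in the rest, and Rpl37 at 25.1 against 34.5 to 46.2. Members lowest in knockout 1 had a median of 69.3% unique windows and those highest in it 50.7%; their median transcript lengths were 860.5 and 791 bases. Knockout 1 was also the library with the most RNA of dividing cells, as given above, and the part of this was not tested.

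**Figure D4:**
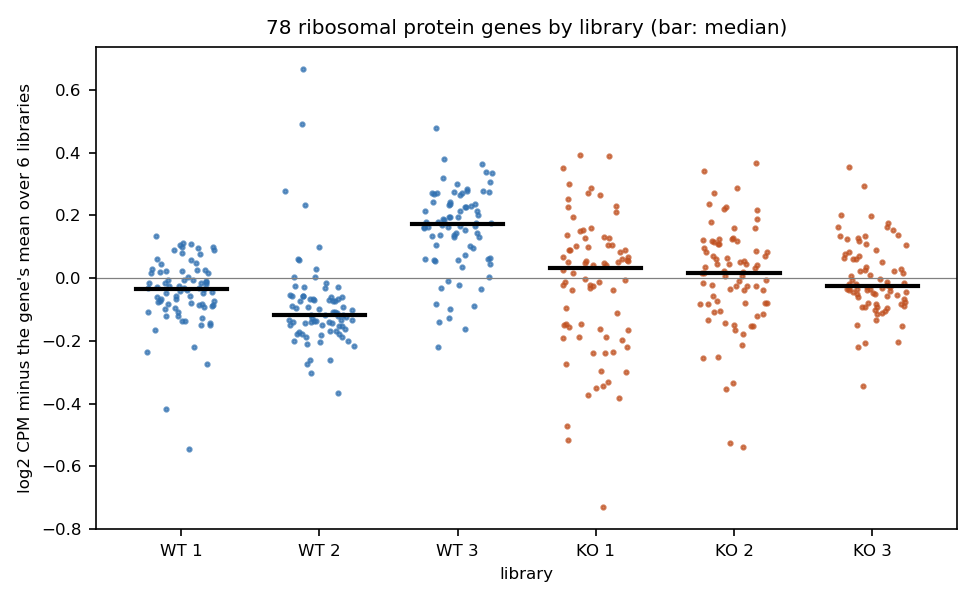
Deviation of each of the 78 tested members from its own mean log2 CPM over the 6 libraries, by library, with the median as a bar. Most points of wild type 3 are above 0 (median 0.17), most of wild type 2 below (-0.12), and knockout 1 is the most spread out.

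The direction of the small overall difference changed with the library left out. Without wild type 3 the members' median log2 fold change was 0.06, with 56 above 0 and 22 below. Without wild type 2 it was -0.07, with 24 above and 54 below. With all 6 libraries 38 were above and 40 below, and with scaling to library size alone 48 were above and 30 below, where the median of all genes also moved, to 0.04. None of these fits called a member in either direction. The fits without wild type 2 and without wild type 3 called 0 of all genes tested. Scaling to library size alone called 0.347% of all genes and the main fit 0.368%. A count of 0 members in these fits therefore says little about the members.

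Within the title prefixes the members went opposite ways. Among the libraries with prefix AK7986, knockout 1 against wild types 1 and 2, 50 members were higher and 28 lower, with a median log2 difference of 0.07. Among those with prefix AK7987, knockouts 2 and 3 against wild type 3, 14 were higher and 64 lower, with a median of -0.18. Over all genes the medians were 0.01 and 0.00. Each prefix has 1 genotype with a single library, so the difference between the prefixes was not tested, and prefix and library cannot be told apart. Rpl10a was higher in the knockouts of both prefixes, by 0.32 and 0.15 log2, as was Rpl11, by 0.27 and 0.32.

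A fit with the prefix as a term called 2 members lower in the knockout and 0 higher, out of 78, where it called 2.54% of all genes lower and 0.746% higher. These were Rpl30 and Rps4x. Rpl30 lies on chromosome 15 (chr15:34440505-34443640) and was picked out after its values were seen. It was at 89.7, 94.6 and 118 CPM in wild type and at 68.1, 100.2 and 104 in knockout, so its genotypes overlapped. With the prefix term its log2 fold change was -0.32 ± 0.07 (edgeR adjusted p = 0.033) and without it -0.15 ± 0.18 (adjusted p = 0.83). The median of the members in that fit was -0.05, with 28 above 0 and 50 below.

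Ribosomal proteins outside the naming rule passed no threshold. All 8 were tested, with a median log2 fold change of 0.02. Of them 0 were called, against 0.368% of all genes, and 0 were at an unadjusted p under 0.05, against 10.7%. So few genes would give 0 calls at that share too. Rack1, the scaffold on the small subunit head, was at 898 ± 74.9 CPM in wild type and 900.2 ± 71.5 in knockout (SD, n = 3 each). Rps3a1, a small subunit protein near the platform, was at 163 ± 22.0 and 149 ± 15.6 CPM. Fau, made as a fusion with a ubiquitin-like protein, was at 6.79 ± 0.450 and 6.97 ± 1.02 CPM.

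The genes that make, control and translate with ribosomes passed no threshold either, where 0.368% of all genes tested were called. A count of 0 is near that share for lists of this size, here and in the lists below. Of 20 translation factors with TOP mRNAs, 0 were called in either direction and 10 were above 0, with a median of -0.01. Eif3e, a subunit of initiation factor 3, was at 192 ± 14.5 CPM in wild type and 174 ± 2.64 in knockout (adjusted p = 0.50), and Hnrnpa1, a splicing factor, at 109 ± 9.06 and 123 ± 2.95 (adjusted p = 0.39). Of 18 genes of mTORC1 and MYC control, 0 were called, with a median of 0.01. Eif4ebp1, the translation repressor that mTORC1 phosphorylates, was at 38.4 ± 0.616 CPM in wild type and 34.5 ± 1.69 in knockout (adjusted p = 0.51).

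Of 16 RNA polymerase I genes, which transcribe the large rRNAs, 0 were called and 11 were above 0, with a median of 0.04. Of 40 nucleolar assembly factors, 0 were called and 27 were above 0, with a median of 0.04. Mdn1, the ATPase that strips assembly factors from the 60S precursor, was at 64.8 ± 2.84 CPM in wild type and 71.7 ± 0.790 in knockout (adjusted p = 0.43). Nat10, the rRNA acetyltransferase, was at 30.7 ± 1.40 and 34.6 ± 0.944 CPM (adjusted p = 0.45). These 2 were the assembly factors at an unadjusted p under 0.05, 5% of the list against 10.7% of all genes. Of 76 tested mitochondrial ribosomal protein genes, 0 were called and 0 were at an unadjusted p under 0.05, with a median of 0.01.

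Of 15 p53 pathway genes, 14 were tested and 0 were called, against 0.368% of all genes, with a median of -0.01. Ccng1, a direct p53 target, was at 95.9 ± 6.55 CPM in wild type and 84.7 ± 1.62 in knockout (adjusted p = 0.34). Plk2, a kinase that p53 induces, was at 228 ± 11.3 and 258 ± 17.3 CPM (adjusted p = 0.41), the opposite direction. Cdkn1a, the cell cycle inhibitor p21, was at 32.5 ± 9.48 and 23.4 ± 6.24 CPM (adjusted p = 0.64), and Mdm2 at 105 ± 5.33 and 108 ± 8.77 CPM (adjusted p = 0.92).

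**Figure D5:**
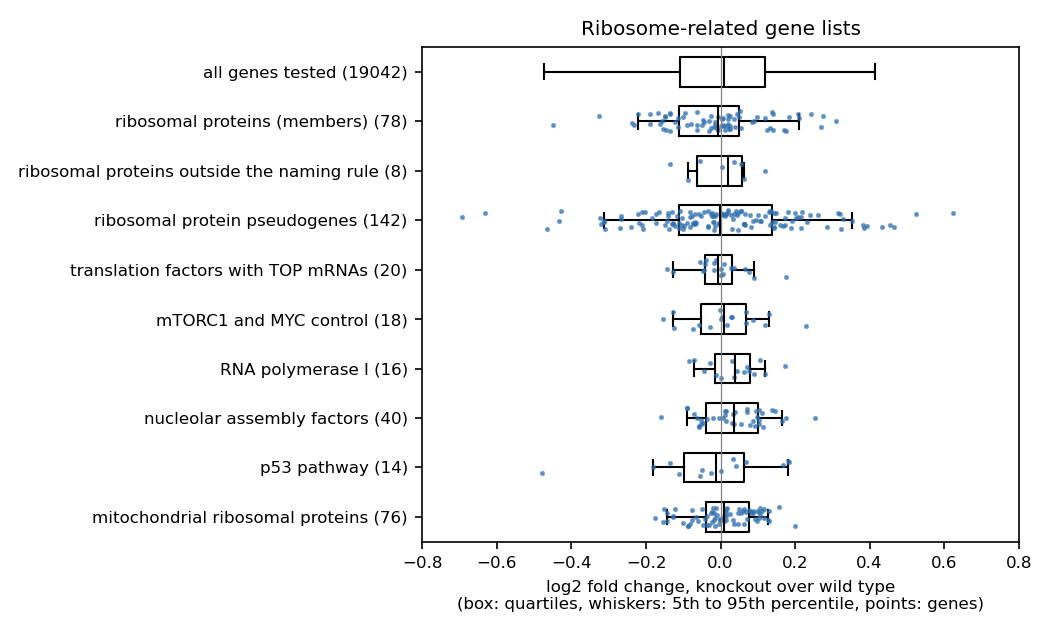
Log2 fold change, knockout over wild type, of all genes tested and of each ribosome-related list (points: genes, box: quartiles, whiskers: 5th to 95th percentile, number tested in brackets). The list medians lie between -0.01 and 0.04.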

How the data were processed

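Polyadenylated lung RNA was read in 6 libraries as 75-base single reads from strand-specific libraries, per the labels' protocols. Reads were handled with bcl2fastq 2.19.1, GSNAP, featureCounts 1.6.3 and DESeq2 1.24.0 on mm10, per the submitters' processing notes. Raw counts for each gene fill the deposited count table, made with featureCounts in strand setting 2 at a mapping quality of at least 1, per the file headers, with an annotation named Ensembl 98. The deposited second table holds a normalised signal, the authors' counts divided by 1 size factor per library. Multiplied back, 100% of values came within 0.1 read of a whole number and 100% equalled the raw counts. A fit of edgeR on those reads therefore repeated the main fit, with 70 genes called, and is no separate check. That alternative was chosen after seeing the data.

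The raw counts were tested with edgeR 4.0.16 (TMM scaling, default low-count filter, robust quasi-likelihood fit on genotype, Benjamini-Hochberg over all 19042 genes, threshold 0.05) under R 4.3.3. CPM are TMM-scaled. Fold changes carry an SE from the F statistic. Alternatives used DESeq2 1.42.0 and limma 3.58.1, other scalings and filters, covariates, and each library left out. The test was run on simulated counts; where these were drawn with gene-specific dispersions, more calls were false than the nominal rate, and the run was accepted on simulations drawn from the dispersion trend.

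Members and lists were chosen with earlier results of these data known. Members named are those past the threshold, the 4 highest and 4 lowest fold changes and the 3 lowest p in each subunit, the stalk genes, paralog pairs, X-linked members and the 3 highest and 3 lowest levels per length. The symbol rule also paired Rpl36al with Rpl36, which is no paralog of it. Some genes that these rules name are not reported here, but all enter the counts and medians. Other members named illustrate a library pattern or a known role and were chosen after their values were seen. Spans of all 79 members were the same in GENCODE M21, which supplied transcripts. The labels do not say that replicates are separate animals, so p-values measure only the spread between these samples.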

Additional observations from a re-analysis of the deposited data

How the results depend on the processing

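The count of members called higher was 0 under every alternative run, and the count called lower was 0 except with the title prefix as a term, which gave 2 (Rpl30 and Rps4x). In that fit Rps4x passed the threshold with a log2 fold change of -0.32; no named member reversed past a threshold. The fit with the prefix called 625 genes in all, DESeq2 357, edgeR without a filter 443, voom 8 and limma on log2(signal + 1) 0, against 70. The fits without wild type 2 and without wild type 3 also called 0 genes in all. The members' median log2 fold change ran from -0.07 to 0.06 over the fits that left out 1 library, changing sign only without wild type 3, and was 0.03 with scaling to library size, -0.01 with DESeq2 and 0.00 with voom. The fit with the prefix is the only block the titles allow: the sample numbers after the prefix have only 1 value common to both genotypes, so single libraries could not be paired. With 3 libraries a genotype, the intervals of 67 of 78 members lie within 1.5-fold, and 20 members under 10 CPM rest on few reads.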
